A study of Mus musculus with 12 samples.

Results

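The genes described here mark the inhibitory interneurons of the cerebral cortex and make their transmitter, gamma-aminobutyric acid (GABA). A list of 31 mouse genes was matched by symbol to the 14801 genes of the deposited table, and 29 were found. Vip and Pvalb are not listed in the table and were not analysed here. RNA sequencing was done on primary cerebrocortical cells, a mixture of neurons and glia dissociated from the cortex of wild-type mouse fetuses taken on gestational day 17.5. One group of 6 cultures received 10 nM triiodothyronine (T3), the active thyroid hormone, for 24 h, and the other group of 6 was kept without T3 in parallel. All 12 cultures had grown for 9 days in medium with the B27 supplement, and all then spent 24 h without B27 before T3 was added to the first group. Each of 6 fetuses, numbered mouse 1 to mouse 6, gave 1 culture of each kind, so the comparison was made within mice. The labels give no strain and no litter.

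Cortical interneurons are born in the ganglionic eminences below the cortex and migrate into it before birth. Dlx transcription factors act in all of them, Lhx6 and its partners set the fate of those from the medial eminence, and Nr2f2, Prox1 and Sp8 mark those from the caudal eminence. Mature interneurons make GABA with the glutamate decarboxylases Gad1 and Gad2 and load it into vesicles with Slc32a1. They differ from each other in neuropeptides such as somatostatin and in calcium-binding proteins such as calbindin and calretinin. In rodents, lack of thyroid hormone in development is known to reduce parvalbumin staining of cortical interneurons, and parvalbumin itself appears in the cortex only after birth.

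The libraries held 7460586 to 10837895 reads with T3 and 5272092 to 8136928 without, and in each mouse the culture with T3 was read more deeply, by 1.03 to 1.67 times. Levels are given in CPM, a gene's reads scaled to a common library total after the authors' TMM normalization. The 29 genes had at least 10 reads in every library, the lowest being Dlx6, and all 29 passed the filter on low values. One library differed from the rest, that of mouse 4 without T3: 9 listed genes of a mesenchymal and muscle marker list summed to 1514 CPM in it, against at most 226 CPM in the other 11 libraries. The cultures had the markers of cortex. All 14 excitatory neuron markers were listed, with Neurod6 at 413 to 498 CPM with T3 and 427 to 568 CPM without. Interneurons were present as well, with Gad1 at 255 CPM or more in each library. In bulk RNA of this kind, fewer cells of a type and less RNA per cell cannot be told apart.

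T3 changed several of the 29 genes, among them neuropeptide and calcium-binding protein genes used to tell interneuron subtypes apart. Calb1 (calbindin), Sst (somatostatin), Cck (cholecystokinin), Nxph2 (a neurexophilin) and Erbb4 (a neuregulin receptor) fell. Pnoc (the nociceptin precursor), Calb2 (calretinin), Npy (neuropeptide Y) and the transcription factor gene Maf rose. The 7 pan-interneuron genes, Gad1, Gad2, Slc32a1, Dlx1, Dlx2, Dlx5 and Dlx6, did not pass, although Gad1, Gad2 and Slc32a1 came close (adjusted p = 0.0735, 0.0878 and 0.0813). The test was limma on log2(CPM + 0.5) over 13663 genes, with the mouse as a block and Benjamini-Hochberg adjustment at 0.05, and every adjusted p below comes from it unless another tool is named. It called 9 of the 29 interneuron genes, 4 higher and 5 lower, which is 31.0% of them. Over all genes tested it called 754, or 5.52%, with 3.37% higher and 2.14% lower. Without the mouse as a block, 2 of the 29 passed, Calb1 and Pnoc, and 178 of all genes did. Without mouse 4, 7 of the 9 still passed, and Npy and Erbb4 did not.

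**Figure D1:**
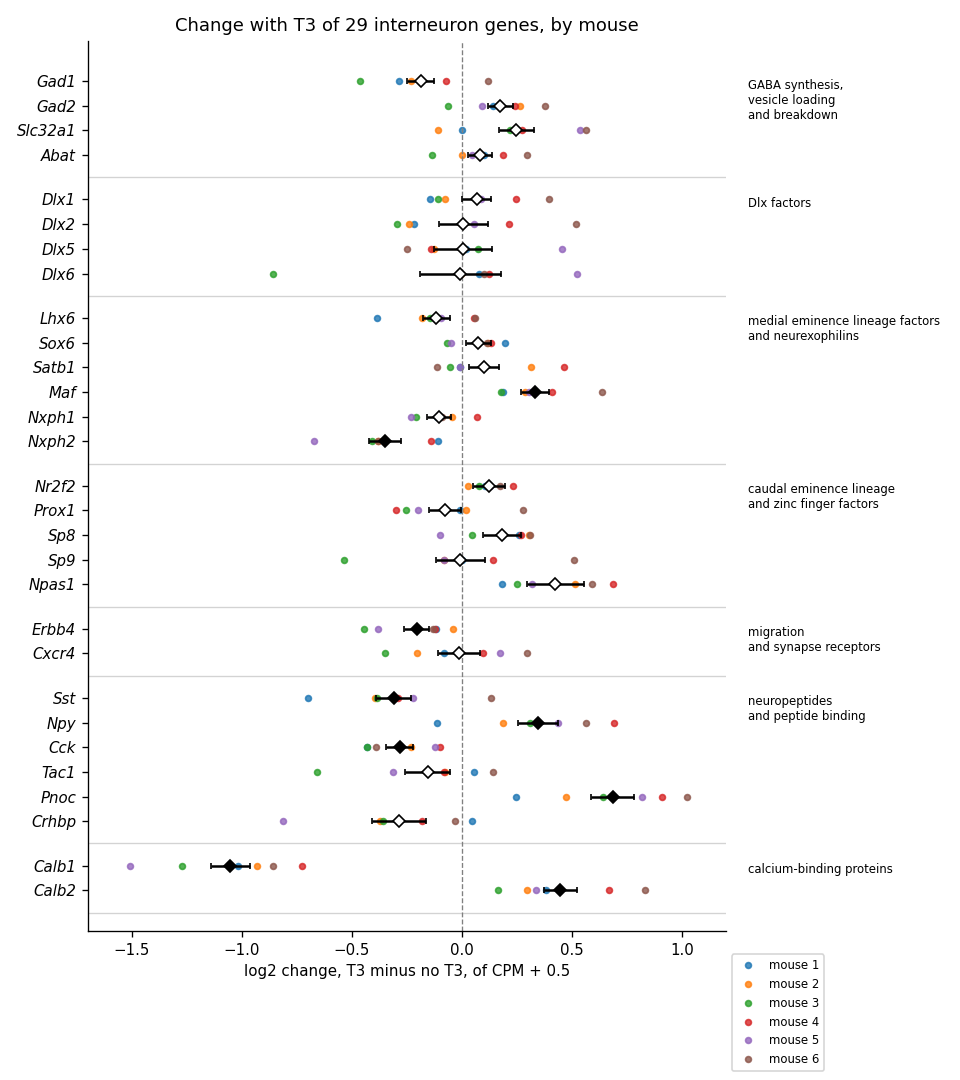
Change with T3 of each of the 29 interneuron genes, as the log2 difference of CPM + 0.5 (x axis), with genes in rows grouped by role. Each coloured point is 1 mouse; diamonds and bars are the fitted change and its SE over 6 mice, filled where the adjusted p was under 0.05. Calb1 lies furthest to the left, with mice from -1.51 to -0.73, and Pnoc furthest to the right among the filled diamonds, with mice from 0.24 to 1.02.

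The genes of GABA synthesis did not pass the threshold, and the 2 decarboxylase genes had log2 changes of opposite sign. Gad1 (ENSMUSG00000070880, chromosome 2 from 70553072 to 70602014 of GRCm38) encodes the isoform GAD67, which makes most of the GABA of the brain. Gad1 had 275, 292, 255, 326, 324 and 348 CPM in the T3 cultures of mouse 1 to mouse 6, against 336, 343, 352, 343, 370.0 and 321 CPM in their cultures without T3. It was lower with T3 in 5 of 6 mice and higher in mouse 6, and the groups overlapped (log2 change -0.19, SE 0.0597, adjusted p = 0.0735, 95% interval -0.31 to -0.064). Gad2 (ENSMUSG00000026787, chromosome 2 from 22622205 to 22693874) encodes GAD65, the isoform at synaptic terminals. Gad2 had 119, 137, 112, 134, 144 and 144 CPM in the T3 cultures of mouse 1 to mouse 6, against 108, 114, 117, 113, 135 and 111 CPM in their cultures without T3. It was higher with T3 in 5 of 6 mice and lower in mouse 3 (log2 change 0.17, SE 0.0573, adjusted p = 0.0878, 95% interval 0.054 to 0.29).

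Taken within a library, the ratio of Gad1 to Gad2 separated the groups. This ratio was chosen after the values of both genes had been seen, and it is given without a test. It was 2.30, 2.13, 2.28, 2.44, 2.24 and 2.41 in the T3 cultures of mouse 1 to mouse 6, against 3.10, 3.01, 3.00, 3.03, 2.73 and 2.89 in their cultures without T3. The highest T3 value thus lay below the lowest value without T3, and the mean log2 change of the ratio was -0.36 ± 0.0924 (SD, n = 6 mice). Gad1 itself passed in 1 of 16 alternative settings, when mouse 6 was left out (adjusted p = 0.0121). Leaving out mouse 1, 2, 3, 4 or 5 gave adjusted p of 0.131, 0.154, 0.348, 0.0889 and 0.149.

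Slc32a1 (ENSMUSG00000037771, chromosome 2 from 158610767 to 158615748), the vesicular GABA transporter, had 47.0, 54.4, 62.3, 71.0, 70.3 and 74.9 CPM in the T3 cultures of mouse 1 to mouse 6, against 47.0, 58.7, 53.5, 58.6, 48.4 and 50.5 CPM in their cultures without T3. It was higher with T3 in 5 of 6 mice, by less than 0.01 on the log2 scale in mouse 1, and lower in mouse 2 (log2 change 0.25, SE 0.0792, adjusted p = 0.0813, 95% interval 0.081 to 0.41). It passed in 2 of 16 alternative settings, without mouse 1 (adjusted p = 0.0327) or without mouse 2 (adjusted p = 0.019). It did not pass without mouse 3, 4, 5 or 6 (adjusted p = 0.191, 0.169, 0.258 and 0.287). With DESeq2 the adjusted p was 0.143. An antisense transcript, Gm14205, covers 24.9% of its exons, and the library kit does not mark strand, so the reads of both are counted together or lost. Abat, the transaminase that breaks GABA down in neurons and astrocytes, averaged 214 ± 16.1 CPM with T3 and 202 ± 7.41 CPM without (SD, n = 6 each), with log2 change 0.081, SE 0.0549, adjusted p = 0.499.

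**Figure D2:**
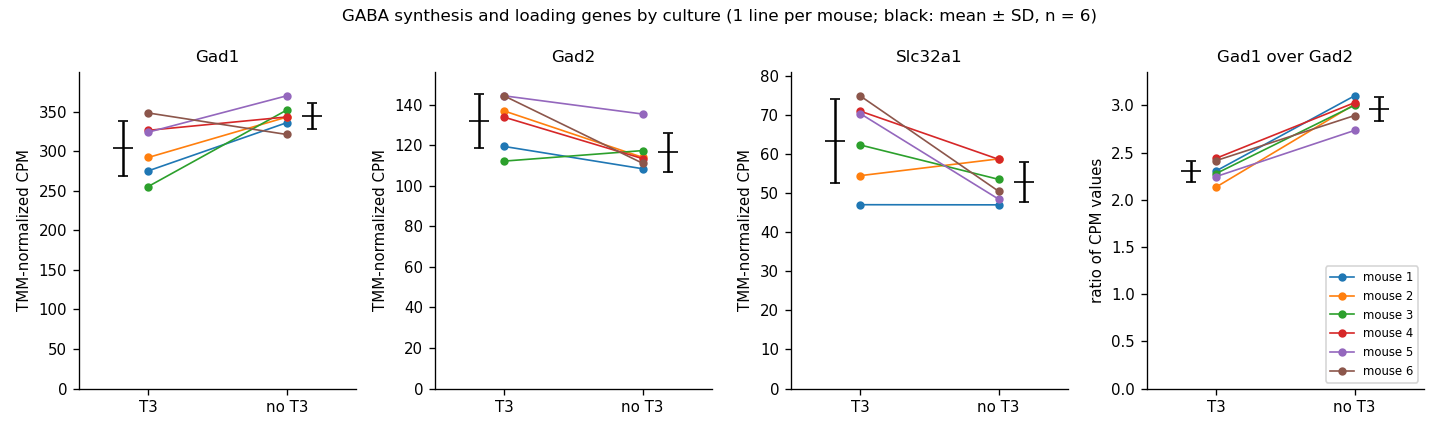
Gad1, Gad2 and Slc32a1 in TMM-normalized CPM (y axes of the first 3 panels) and the ratio of Gad1 to Gad2 (last panel) in T3 and no T3 cultures. Each line joins the 2 cultures of 1 mouse; black marks are the mean and SD over 6 cultures. The ratio lies between 2.13 and 2.44 with T3 and between 2.73 and 3.10 without.

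The Dlx genes, homeobox factors that drive interneuron differentiation and migration, did not pass, and 3 of the 4 had log2 changes close to 0. Dlx1 (ENSMUSG00000041911, chromosome 2 from 71528113 to 71533981) had 81.8, 81.5, 82.6, 96.4, 104 and 116 CPM in the T3 cultures of mouse 1 to mouse 6, against 90.5, 86.0, 89.2, 81.3, 98.2 and 88.2 CPM in their cultures without T3. It was higher with T3 in 3 mice and lower in 3 (log2 change 0.067, SE 0.0671, adjusted p = 0.683, 95% interval -0.074 to 0.21). Dlx2 averaged 12.4 ± 2.77 CPM with T3 and 12.2 ± 1.58 CPM without (SD, n = 6 each), Dlx5 5.52 ± 1.05 CPM with T3 and 5.50 ± 1.07 CPM without (SD, n = 6 each) and Dlx6 2.52 ± 0.935 CPM with T3 and 2.48 ± 0.569 CPM without (SD, n = 6 each). Their log2 changes lay between -0.0072 and 0.00626, with adjusted p from 0.989 to 0.993. Dlx6 rests on 10 to 47 reads per library, and its 95% interval of -0.39 to 0.37 leaves room for changes as large as that of Maf.

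Among the factors of the medial eminence lineage, Maf rose and the others did not pass. Maf (ENSMUSG00000055435, chromosome 8 from 115682942 to 115707794) encodes c-Maf, which in the mouse acts in interneurons of the medial eminence. Maf had 68.7, 72.7, 71.6, 78.0, 76.0 and 101 CPM in the T3 cultures of mouse 1 to mouse 6, against 60.3, 59.6, 63.2, 58.6, 61.5 and 65.0 CPM in their cultures without T3. Each T3 culture lay above every culture without T3, and T3 raised the gene 1.26-fold (log2 change 0.33, SE 0.0631, adjusted p = 0.00232). Antisense Gm15655 covers 5.34% of its exons. Groups that do not overlap were seen for 4 of the 29 genes, Maf, Npas1, Pnoc and Calb1, and for 1.68% of all genes tested.

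Lhx6 (ENSMUSG00000026890, chromosome 2 from 36081953 to 36105408), the homeobox factor downstream of Nkx2-1 in this lineage, had 53.1, 61.3, 64.7, 81.3, 69.7 and 98.4 CPM in the T3 cultures of mouse 1 to mouse 6, against 69.6, 69.7, 71.7, 78.3, 74.5 and 94.5 CPM in their cultures without T3. The groups overlapped, with 2 mice higher and 4 lower (log2 change -0.12, SE 0.0621, adjusted p = 0.353, 95% interval -0.25 to 0.013). Sox6 and Satb1, which act after Lhx6 in the maturation of the same cells, averaged 70.4 ± 13.1 CPM with T3 and 66.7 ± 10.6 CPM without (SD, n = 6 each) and 132 ± 14.4 CPM with T3 and 124 ± 15.6 CPM without (SD, n = 6 each), with adjusted p of 0.577 and 0.514. Sox6 is also a gene of oligodendrocyte precursors, and Satb1 is found in projection neurons too.

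Both neurexophilin genes, which encode secreted ligands of alpha-neurexins, had a log2 change below 0, and Nxph2 passed. Nxph2 (ENSMUSG00000069132, chromosome 2 from 23321246 to 23401973) had 41.7, 39.7, 35.8, 38.3, 34.3 and 45.5 CPM in the T3 cultures of mouse 1 to mouse 6, against 45.0, 51.9, 47.7, 42.3, 54.9 and 59.4 CPM in their cultures without T3. It was lower with T3 in 6 of 6 mice, although the ranges overlapped (log2 change -0.35, SE 0.0719, adjusted p = 0.0047). Nxph1, which is enriched in somatostatin and parvalbumin interneurons, averaged 126 ± 13.0 CPM with T3 and 135 ± 12.6 CPM without (SD, n = 6 each), lower in 5 of 6 mice and not past the threshold (log2 change -0.104, SE 0.0528, adjusted p = 0.321).

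None of 5 other transcription factor genes, Npas1, Nr2f2, Prox1, Sp8 and Sp9, passed. Npas1, a repressor of the basic helix-loop-helix family, came closest: it averaged 6.09 ± 0.936 CPM with T3 and 4.38 ± 0.270 CPM without (SD, n = 6 each), and each T3 culture lay above every culture without T3 (log2 change 0.42, SE 0.130, adjusted p = 0.064, with 22 to 69 reads per library). Nr2f2, the nuclear receptor COUP-TFII, was higher in 6 of 6 mice by a small amount (log2 change 0.12, SE 0.0738, adjusted p = 0.431). The zinc finger factor gene Sp8 had a log2 change of 0.18 (adjusted p = 0.288), the homeobox gene Prox1 of -0.078 (adjusted p = 0.653) and Sp9, a relative of Sp8, of -0.0087 (adjusted p = 0.984).

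Of the 2 receptor genes, Erbb4 fell and Cxcr4 did not pass. Erbb4 (ENSMUSG00000062209, chromosome 1 from 68032186 to 69108059) encodes the neuregulin receptor that guides migrating interneurons and later sits at their synapses. Erbb4 had 209, 228, 178, 244, 234 and 295 CPM in the T3 cultures of mouse 1 to mouse 6, against 226, 235, 242, 266, 304 and 323 CPM in their cultures without T3. It was lower with T3 in 6 of 6 mice, by 0.0400 to 0.443 on the log2 scale, while the ranges of the groups overlapped widely (log2 change -0.21, SE 0.0561, adjusted p = 0.0338). Its call was lost without mouse 3, 4 or 5 (adjusted p = 0.206, 0.0545 and 0.128). Cxcr4, the chemokine receptor that holds interneurons in their migratory streams, averaged 16.8 ± 4.01 CPM with T3 and 16.8 ± 3.53 CPM without (SD, n = 6 each) (adjusted p = 0.969). The 5 listed microglial markers, whose cells also carry Cxcr4 and Maf, summed to 4.28 to 8.70 CPM with T3 and 3.08 to 10.2 CPM without.

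Neuropeptide genes moved in both directions. Sst (ENSMUSG00000004366, chromosome 16 from 23889573 to 23890958) encodes somatostatin, the peptide of the largest group of medial eminence interneurons outside the parvalbumin cells. Sst had 109.6, 149, 174, 146, 160.1 and 203 CPM in the T3 cultures of mouse 1 to mouse 6, against 178, 196, 228, 179, 187 and 185 CPM in their cultures without T3. It fell in 5 of 6 mice and was higher with T3 in mouse 6, 1.24-fold lower overall (log2 change -0.31, SE 0.0786, adjusted p = 0.0319). The call was lost with scaling to library size alone (adjusted p = 0.063) and without mouse 2, 3 or 5 (adjusted p = 0.0979, 0.109 and 0.101).

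Cck (ENSMUSG00000032532, chromosome 9 from 121489824 to 121495694), the cholecystokinin gene of basket interneurons and of many projection neurons, had 65.2, 75.1, 87.2, 86.1, 75.6 and 44.1 CPM in the T3 cultures of mouse 1 to mouse 6, against 88.0, 88.3, 118, 92.2, 82.3 and 58.0 CPM in their cultures without T3. It was lower with T3 in 6 of 6 mice (log2 change -0.28, SE 0.0602, adjusted p = 0.0059), with mouse 6 the lowest of its group under both conditions. Npy (ENSMUSG00000029819, chromosome 6 from 49822710 to 49829507), which overlaps with somatostatin in many interneurons, had 24.8, 29.9, 31.4, 24.3, 42.6 and 24.7 CPM in the T3 cultures of mouse 1 to mouse 6, against 26.9, 26.2, 25.3, 14.8, 31.4 and 16.6 CPM in their cultures without T3. It was higher with T3 in 5 of 6 mice and lower in mouse 1 (log2 change 0.34, SE 0.0904, adjusted p = 0.0268). The call of Npy was lost with DESeq2 (adjusted p = 0.084) and without mouse 3, 4, 5 or 6 (adjusted p from 0.079 to 0.12).

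Sequence before these 3 peptide genes is shown because Sst and Cck fell and Npy rose within the same cultures. The windows are the 250 bases before the RefSeq start, in build GRCm38.p6: Sst from chr16:23890845-23891094 on the minus strand, Cck from chr9:121495695-121495944 on the minus strand and Npy from chr6:49822460-49822709 on the plus strand. For Cck and Npy the GENCODE and RefSeq starts are the same base. For Sst, GENCODE begins the gene further out, so that 114 bases of the window lie inside the gene as GENCODE has it. Of the Sst window, 30 bases around the marked element are printed, chr16:23890874-23890903, and the other 2 windows are whole, each 5′ to 3′ on the strand of its gene. Capitals mark the cAMP response element TGACGTCA or its shorter form TGACG, searched on both strands.
Sst element: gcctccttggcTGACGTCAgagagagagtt
Cck promoter: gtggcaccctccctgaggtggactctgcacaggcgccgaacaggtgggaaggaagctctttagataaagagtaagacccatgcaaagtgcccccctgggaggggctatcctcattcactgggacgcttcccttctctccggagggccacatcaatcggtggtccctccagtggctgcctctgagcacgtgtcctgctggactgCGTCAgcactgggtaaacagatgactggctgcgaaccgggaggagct
Npy promoter: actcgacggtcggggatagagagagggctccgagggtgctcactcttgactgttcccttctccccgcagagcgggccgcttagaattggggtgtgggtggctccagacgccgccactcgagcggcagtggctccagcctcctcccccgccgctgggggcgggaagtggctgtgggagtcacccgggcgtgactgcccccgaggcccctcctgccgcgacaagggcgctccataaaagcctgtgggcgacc
The Sst window holds the full element at bases -48 to -41 from the RefSeq start, inside the gene by the GENCODE coordinates. The Cck window holds 1 shorter form and the Npy window none. Of 32851 RefSeq windows of this length, 1.55% hold the full element and 17.8% the shorter form, which the full element contains. The thyroid receptor half-site AGGTCA, searched in the same way, is in none of the 3 windows and in 14.0% of all. These matches describe the letters of the windows only.

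Pnoc (ENSMUSG00000045731, chromosome 14 from 65400673 to 65425472), which encodes the precursor of the opioid-like peptide nociceptin, showed the largest rise. Pnoc had 20.0, 22.4, 24.5, 24.2, 27.2 and 28.7 CPM in the T3 cultures of mouse 1 to mouse 6, against 16.8, 16.0, 15.5, 12.6, 15.2 and 13.9 CPM in their cultures without T3. Each T3 culture lay above every culture without T3, and the gene was 1.61-fold higher (log2 change 0.68, SE 0.0966, adjusted p = 0.000106). The rise ranged from 0.24 in mouse 1 to 1.02 in mouse 6 on the log2 scale, and its call held in all 16 alternative settings. Tac1, the substance P precursor, and Crhbp, a binding protein for corticotropin-releasing hormone, were listed at 13.9 ± 3.59 CPM with T3 and 15.5 ± 3.01 CPM without (SD, n = 6 each) and 7.47 ± 1.85 CPM with T3 and 9.45 ± 3.10 CPM without (SD, n = 6 each). Neither passed (adjusted p = 0.491 and 0.221). The SD of the log2 change over mice was 0.29 for Tac1 and 0.31 for Crhbp, beside 0.29 for Pnoc.

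The related calcium-binding protein genes Calb1 and Calb2 moved in opposite directions. Calb1 (ENSMUSG00000028222, chromosome 4 from 15881264 to 15908064) encodes calbindin, found in many somatostatin interneurons and also in superficial projection neurons of the cortex. Calb1 had 23.1, 20.7, 15.5, 17.9, 24.0 and 17.4 CPM in the T3 cultures of mouse 1 to mouse 6, against 47.2, 40.0, 38.1, 29.9, 69.1 and 32.0 CPM in their cultures without T3. Each T3 culture lay below every culture without T3, and the gene was 2.07-fold lower (log2 change -1.05, SE 0.0888, adjusted p = 1.72e-07). Without T3 the values ran from 29.9 to 69.1 CPM, the highest in mouse 5 and the next, in mouse 1, at 47.2 CPM. With T3 they ran from 15.5 to 24.0 CPM.

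Calb2 (ENSMUSG00000003657, chromosome 8 from 110137502 to 110168210) encodes calretinin, which marks interneurons of the caudal eminence and, in the fetal cortex, Cajal-Retzius cells. Calb2 had 63.5, 83.6, 76.7, 85.9, 70.0 and 138 CPM in the T3 cultures of mouse 1 to mouse 6, against 48.6, 68.1, 68.5, 53.8, 55.3 and 77.4 CPM in their cultures without T3. It was higher with T3 in 6 of 6 mice (log2 change 0.45, SE 0.0741, adjusted p = 0.000773), with the T3 culture of mouse 6 well above the rest. The ratio of Calb1 to Calb2 within a library, chosen after the values were seen, was 0.126 to 0.364 with T3 and 0.413 to 1.25 without. Of the 7 Cajal-Retzius markers, Lhx1, Lhx5 and Ebf3 are not listed, Trp73 was at most 1.79 CPM with T3 and 3.91 CPM without, and none of the 4 listed passed. The 4 summed to 233 to 442 CPM with T3 and 212 to 297 CPM without, mostly Reln, which interneurons also express. Their part in the change of Calb2 was not tested.

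**Figure D3:**
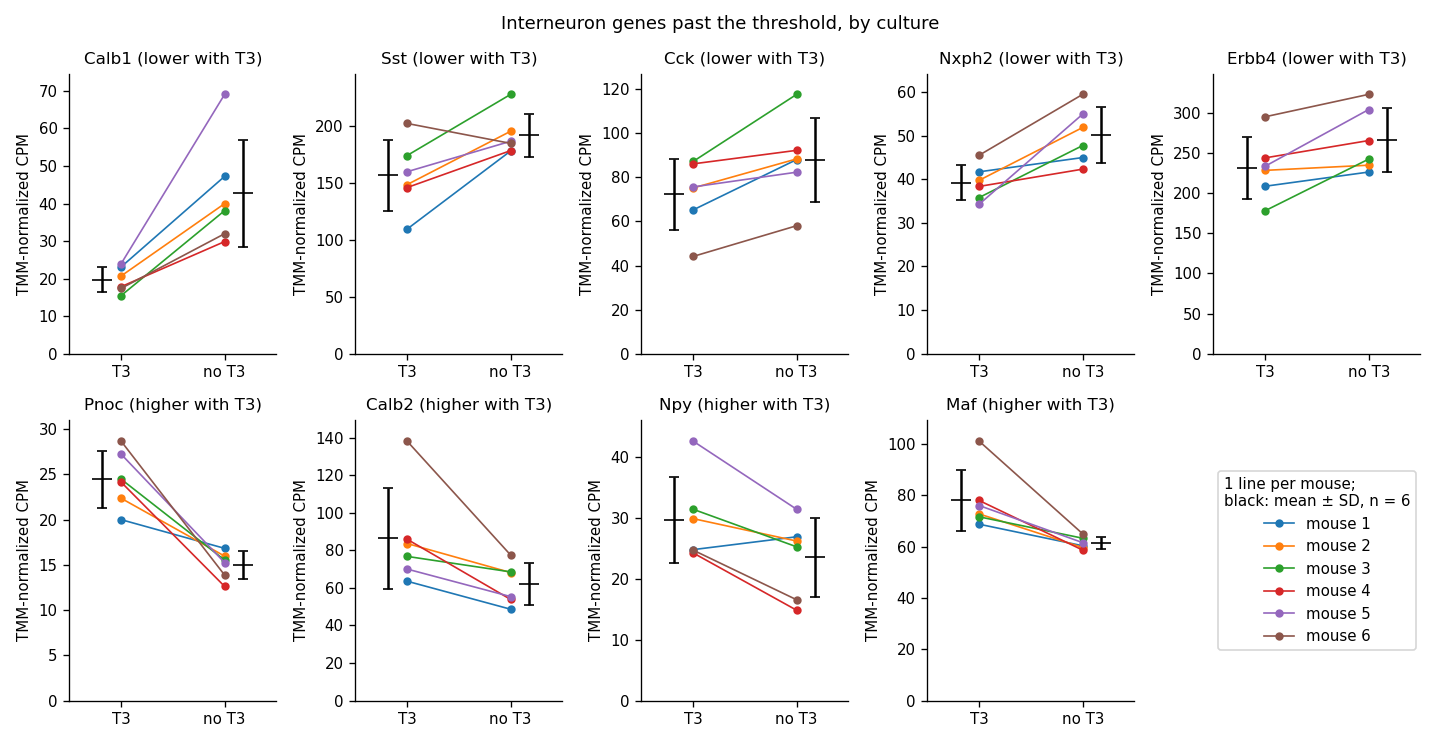
TMM-normalized CPM (y axes) of the 9 interneuron genes past the threshold in T3 and no T3 cultures. Each line joins the 2 cultures of 1 mouse; black marks are the mean and SD over 6 cultures. The lines of Calb1, Cck, Nxph2 and Erbb4 are lower with T3 in every mouse, and those of Pnoc, Calb2 and Maf are higher in every mouse.

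Of the 8 listed subtype genes, Sst, Npy, Cck, Tac1, Pnoc, Crhbp, Calb1 and Calb2, 3 rose and 3 fell. None of the 7 pan-interneuron genes passed, a share that says little beside the 5.52% called over all genes, and the difference between the 2 lists was not tested. The median size of the log2 change, without its sign, was 0.33 among subtype genes, 0.0665 among pan-interneuron genes and 0.0821 among all genes tested. With the sign, the medians were -0.22, 0.00626 and 0.00308. Sst and Maf, both genes of the medial lineage, went opposite ways. These are counts and medians of a list chosen with results of these data known.

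The pan-interneuron genes were also summed, as a common base for the other genes. Their summed level was 543, 580.2, 532, 648, 666 and 709 CPM in the T3 cultures of mouse 1 to mouse 6, against 603, 619, 635, 616, 671 and 592 CPM in their cultures without T3. The log2 change of the sum ran from -0.26 in mouse 3 to 0.26 in mouse 6, with 4 mice lower and 2 higher. Taken as a share of this sum, Maf was 12.7 ± 1.01% with T3 and 9.88 ± 0.619% without (SD, n = 6 each), and its log2 change per mouse spanned 0.32 to 0.44, a narrower range than the 0.18 to 0.63 of its CPM. Calb2 was 14.0 ± 3.10% with T3 and 9.98 ± 1.97% without, higher in 6 of 6 mice, and Npy was 4.88 ± 1.17% with T3 and 3.76 ± 0.935% without, also higher in 6 of 6.

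Sst as a share of the same sum was 25.6 ± 4.50% with T3 and 30.9 ± 2.83% without, lower in 6 of 6 mice, mouse 6 included. Calb1 was 3.26 ± 0.669% with T3 and 6.81 ± 1.99% without and Cck 12.0 ± 3.34% with T3 and 14.1 ± 2.91% without, each lower in 6 of 6 mice. Erbb4 and Nxph2 were lower on this measure in 4 and 5 of 6 mice. Gad1 is the largest term of the sum, so the shares move with it, and they are given without a test.

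The levels of the genes covered a wide range once set per exon length. In CPM per kb of exon, Sst stood highest, at 218 ± 43.0 with T3 and 266 ± 26.0 without (SD, n = 6 each). Cck followed at 55.3 ± 12.2 with T3 and 67.2 ± 14.6 without. With T3 the next were Npy, Calb2 and Gad1, and without T3 they were Gad1, Npy and Calb2. Npy stood at 52.4 ± 12.5 and 41.6 ± 11.4, Calb2 at 49.5 ± 15.3 and 35.5 ± 6.33, and Gad1 at 39.7 ± 4.61 and 45.1 ± 2.13, with T3 and without in each case. These neighbours lie within about 1 SD of each other in at least 1 of the groups. Among the transcription factors Dlx1 and Lhx6 were the most abundant, and Npas1 and Dlx6 stood lowest of the 29. Calb1 was number 23 of the 29 genes with T3 and number 15 without, and Pnoc number 14 with T3 and number 17 without.

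**Figure D4:**
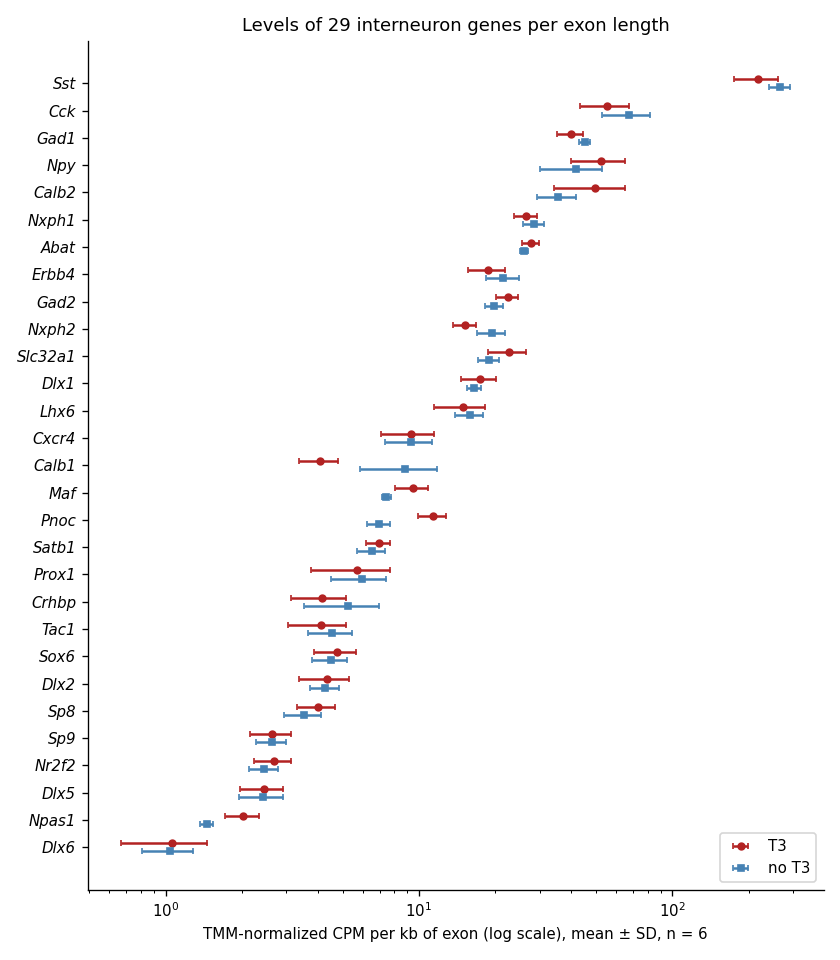
Levels of the 29 interneuron genes in TMM-normalized CPM per kb of exon (x axis, log scale) with T3 (red circles) and without (blue squares), as mean and SD over 6 cultures, ordered by the level without T3. Sst lies highest at 218 with T3 and 266 without, and the 2 marks stand clearly apart for Calb1 and Pnoc.

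Mice differed from each other more in some genes than in others. Without T3, the SD of the log2 level over 6 mice was 0.53 for Crhbp, 0.43 for Calb1, 0.42 for Npy and 0.35 for Prox1, the 4 highest of the 29. It was 0.0537 for Abat, 0.0550 for Maf and 0.0680 for Gad1, the 3 lowest. The change with T3 also differed by mouse. Mouse 3 had the lowest change of the 6 mice for 12 of the 29 genes and mouse 6 the highest for 16.

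Other genes of GABA handling mostly did not pass. Of 18 named, 17 were listed and tested, 2 rose and none fell, beside 3.37% higher and 2.14% lower over all genes. The liver-type glutaminase gene Gls2, which frees glutamate from glutamine, had 6.23, 7.54, 7.35, 8.93, 6.65 and 8.21 CPM in the T3 cultures of mouse 1 to mouse 6, against 2.56, 3.37, 3.39, 3.15, 3.37 and 1.93 CPM in their cultures without T3 (log2 change 1.22, SE 0.146, adjusted p = 1.49e-05). Slc38a3, a glutamine transporter of astrocytes, had 152, 76.3, 79.4, 78.0, 126 and 70.6 CPM in the T3 cultures of mouse 1 to mouse 6, against 105, 72.8, 49.6, 51.2, 86.6 and 32.2 CPM in their cultures without T3. It was higher in 6 of 6 mice with wide overlap between the groups (log2 change 0.59, SE 0.102, adjusted p = 0.00508), and its call was lost without mouse 5 (adjusted p = 0.0548) and without the mouse as a block (adjusted p = 0.549). The astrocyte GABA transporter gene Slc6a11 (log2 change 0.0147, adjusted p = 0.935) and the chloride exporter gene Slc12a5 (log2 change 0.0974, adjusted p = 0.403) did not pass.

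Of 32 other interneuron genes, 29 were listed and 28 tested, of which 2 rose and 4 fell, beside the same shares over all genes. Sstr2, a receptor for somatostatin, had 25.8, 21.9, 26.8, 20.4, 25.3 and 23.3 CPM in the T3 cultures of mouse 1 to mouse 6, against 18.2, 16.8, 16.5, 15.2, 19.6 and 16.4 CPM in their cultures without T3. It was higher with no overlap (log2 change 0.47, SE 0.0784, adjusted p = 0.000703), while Sst itself fell.

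The cannabinoid receptor gene Cnr1, carried by many Cck interneurons, was lower in 6 of 6 mice, at 325 ± 19.9 CPM with T3 and 379.8 ± 27.9 CPM without (SD, n = 6 each) (log2 change -0.22, SE 0.0512, adjusted p = 0.0113). The potassium channel gene Kcnc2 was lower with no overlap, at 25.9 ± 2.35 CPM with T3 and 32.3 ± 3.51 CPM without (SD, n = 6 each) (log2 change -0.31, SE 0.0709, adjusted p = 0.01). The guidance receptor gene Robo1 averaged 116 ± 12.5 CPM with T3 and 142 ± 23.1 CPM without (SD, n = 6 each) (log2 change -0.28, SE 0.0568, adjusted p = 0.0037). The ETS factor gene Etv1, which also marks projection neurons of layer 5, averaged 29.4 ± 7.08 CPM with T3 and 36.9 ± 10.3 CPM without (SD, n = 6 each) (log2 change -0.31, SE 0.0874, adjusted p = 0.0399), and its call was lost with DESeq2 (adjusted p = 0.0803) and without any one of mouse 2 to mouse 6 (adjusted p from 0.0509 to 0.222). The calls of Cnr1 and Kcnc2 were lost without mouse 3 (adjusted p = 0.0842 and 0.0522), and that of Cnr1 also without mouse 5 (adjusted p = 0.0502).

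Several of the 29 genes are shared with other cells of the cultures, whose markers were measured beside them. The marker counts given here stand beside 3.37% higher and 2.14% lower over all genes tested. The 14 excitatory neuron markers summed to 1745 to 2170.1 CPM with T3 and 1824 to 2118 CPM without, with 2 higher and 3 lower. Emx1 and Camk2a were higher, Slc17a6 and Fezf2 were among those lower, and projection neurons are known to carry Calb1, Cck and Satb1. The 8 astrocyte markers were higher in sum in 6 of 6 mice, at 1229 to 3205 CPM with T3 and 813 to 2741 CPM without, with 4 of the 7 tested higher, which stands beside the values of Abat and Slc38a3. The 6 markers of oligodendrocyte precursors were higher in sum in 6 of 6 mice, at 394 to 497 CPM with T3 and 292 to 438 CPM without, with 3 of 6 higher, beside Sox6. Of 14 markers of striatal projection neurons, which would come with tissue from below the cortex and express Gad1 and Tac1, Isl1 and Ebf1 are not listed, Drd1 was at most 3.55 CPM with T3 and 4.05 CPM without, and Drd2 fell (log2 change -0.59, adjusted p = 0.0318). Their sum was 366 to 408 CPM with T3 and 370.0 to 468 CPM without, higher with T3 in 1 of 6 mice. Most of this sum came from Pde10a, Meis2 and Foxp1. Pde10a alone averaged 146 ± 13.6 CPM with T3 and 158 ± 18.7 CPM without (SD, n = 6 each). The part of these cells in the changes of the interneuron genes was not tested.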

How the data were processed

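RNA was sequenced from 12 cultures as single reads of 75 bases with a kit that does not mark strand, per the labels' protocols. The deposited signal is, judged from its values and title, counts per gene divided by TMM-scaled library totals (CPM). Per the submitters' processing notes, the tools used were Bowtie, TopHat, HTSeq, edgeR, CASAVA and FastQC, on GRCm38, with no version given in the sources used here. The table and the single-library files agreed to within 5.09e-11. All values came out as whole reads (tolerance 0.01 reads), which gave back 5272092 to 10837895 reads per library, and 0.273 to 0.557 CPM stands for 3 reads. The recovery covers counting error only.

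Symbols were found for 14648 of 14801 identifiers. Coordinates, exon lengths and overlaps come from GENCODE release M21 on GRCm38, and promoter windows, held for 22 of the 29 genes, from RefSeq on GRCm38.p6. Genes were kept by filterByExpr of edgeR 4.0.16 on the recovered reads (13663 of 14801). T3 was compared with no T3 by limma 3.58.1 in R 4.3.3 on log2(CPM + 0.5), two-sided, with the mouse as a block, a mean-variance trend and robust variance shrinkage, and with Benjamini-Hochberg adjustment over all genes. The added 0.5 makes changes of low genes look smaller. The series' design states that each fetus gave both cultures. Deviations from the group means correlated at 0.237 to 0.638 within mice, and each mouse was its own best match. Libraries of a group differed by more than sampling noise (chi-square per degree of freedom from 2.41). Intervals use the moderated t distribution. Alternatives were no block, pseudocounts of 0.25 and 1, no filter, a mean of at least 5 CPM, RLE and library-size scaling, edgeR, DESeq2 1.42.0 and limma-voom on the recovered reads, and leaving out each mouse. The test was tried on simulated counts.

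All 29 genes are named; those past the threshold and Gad1, Gad2, Slc32a1, Lhx6 and Dlx1 are given in each library, and of the other lists, with the exception below, the genes that passed and at most 4 more each are named in the report. Some genes of these lists, and of the marker lists, are counted but not reported by name here. Genes in the closing observations were chosen after their values were seen. The members and lists were chosen with earlier results of these data known.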

Additional observations from a re-analysis of the deposited data

Results flagged for a closer look

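The 29 interneuron genes gave 58 groups of 6 cultures, and in 9 of them the highest or lowest culture stood apart by Dixon's criterion, from the gap to its neighbour as a share of the range. Chance marks about 1 group in 20. Of the 9, 4 concern the T3 culture of mouse 6: Calb2 at 138 CPM with its neighbour at 85.9, Maf at 101 with its neighbour at 78.0, Prox1 at 79.3 with its neighbour at 49.2, and Dlx2 at 17.7 with its neighbour at 12.1. The same mouse had the highest Lhx6 without T3, at 94.5 CPM. The T3 culture of mouse 6 also held the highest sum of pan-interneuron genes, at 709 CPM. The calls of Calb2 and Maf held without mouse 6 (adjusted p = 0.00317 and 0.014).

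The other 4 lay in cultures without T3. Gad2 stood at 135 CPM in mouse 5, Sst at 228 CPM in mouse 3 and Cxcr4 at 23.6 CPM in mouse 1, each above the rest. Sp8 stood at 10.9 CPM in mouse 4, below the rest, in the library that held the muscle and connective tissue transcripts. The T3 culture of mouse 4, without such a sum of those transcripts, also had the lowest Sp8 of its group, at 13.3 CPM.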

How the results depend on the processing

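The results were computed again in 16 alternative settings, and no log2 change that passed in any setting changed its sign among the 29 genes. Without the mouse as a replicate block, 178 of all genes, 2 of the 29 interneuron genes and 3 of the other genes of GABA handling and interneurons passed. Same-numbered cultures come from the same fetus, so that fit counts differences between mice as error. Leaving out 1 mouse gave 459 genes without mouse 3 to 854 without mouse 1, and 6 to 10 of the 29. Of the 463 repeated tests of the 29 genes, 19 lost a call and 3 gained one. Without mouse 4, whose library without T3 held muscle transcripts, 7 of the 9 calls remained, with Npy and Erbb4 lost. The calls of Calb1 and Pnoc held in all 16 settings, and those of Maf, Nxph2, Cck and Calb2 in all but the fit without the block. The counts with other pseudocounts, filters, scalings and tools stayed within 1.5 times the reported ones. Depth limits Dlx5, Dlx6 and Npas1 most, with 10 to 75 reads per library.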

Other observations

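Some interneuron genes outside the 29 had values close to the threshold. Cort, which encodes cortistatin, a peptide closely related to somatostatin, averaged 12.2 ± 2.67 CPM with T3 and 9.28 ± 2.23 CPM without (SD, n = 6 each) and was higher in 5 of 6 mice (log2 change 0.37, SE 0.123, adjusted p = 0.0879). Kcnc1, a potassium channel gene of fast-spiking cells, averaged 73.5 ± 3.72 CPM with T3 and 64.4 ± 6.87 CPM without (SD, n = 6 each) (log2 change 0.197, SE 0.0649, adjusted p = 0.0881). Its groups only just failed to overlap, with a lowest T3 value of 69.88 CPM and a highest value without T3 of 69.73 CPM. The smallest change in a mouse was 0.0031 on the log2 scale. Reln, the reelin gene, averaged 290.1 ± 78.3 CPM with T3 and 241 ± 33.3 CPM without (SD, n = 6 each) (log2 change 0.24, SE 0.0687, adjusted p = 0.0539), and it passed with edgeR (adjusted p = 0.047), DESeq2 (adjusted p = 0.034) and limma-voom (adjusted p = 0.0459). Without the mouse as a block the adjusted p of Reln was 0.684. Leaving out 1 mouse gave from 0.00831 without mouse 3 to 0.18 without mouse 5. Kit averaged 153 ± 8.20 CPM with T3 and 134 ± 11.5 CPM without (SD, n = 6 each) (log2 change 0.19, SE 0.0571, adjusted p = 0.0511). Grik1, a kainate receptor gene, averaged 22.7 ± 3.47 CPM with T3 and 27.5 ± 2.93 CPM without (SD, n = 6 each) and was lower in 5 of 6 mice (log2 change -0.28, SE 0.0851, adjusted p = 0.0606), and it passed with edgeR (adjusted p = 0.0468) and limma-voom (adjusted p = 0.0466). Grik1 did not pass with DESeq2 (adjusted p = 0.179) or without the mouse as a block (adjusted p = 0.287). Leaving out 1 mouse gave from 0.0368 without mouse 4 to 0.27 without mouse 3. Nkx2-1, which starts the medial programme, was at 0 to 2.34 CPM with T3 and 0.293 to 2.02 CPM without, too low to be tested.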
